A study of Mus musculus with 6 samples.

Results

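The β subunits of the 20S proteasome, the barrel-shaped protease core that degrades ubiquitinated proteins, were measured by 15 probe sets for 10 genes, out of 45101 probe sets and 18194 genes with a single symbol on the array. Members were every probe set that the platform annotation assigns to only 1 of the genes Psmb1 to Psmb10, and all 10 genes had at least 1. The 7 constitutive genes, Psmb1 to Psmb7, had 11 probe sets, and the 3 immune genes, Psmb8, Psmb9 and Psmb10, had 4. Both groups of mice were female C57BL/6, were ovariectomized at 4 months of age and kept their pellets for 60 days. The OVX group (3 arrays) received placebo pellets, and the OVX + E2 group (3 arrays) received pellets with 0.18 mg of 17β-estradiol (E2), the main ovarian estrogen. No ovary-intact mice were on the arrays, so each difference below is between hormone replacement and hormone loss. Each sample was hybridized to 1 array. No source says that the 6 samples are 6 animals, so a p-value here measures the spread among samples, which may be only technical.

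The core is a stack of 4 rings, with an α ring at each end and a pair of β rings between them, and each β ring holds 7 different β subunits. Protein chains are cut by only 3 of these, β1 (Psmb6, caspase-like activity), β2 (Psmb7, trypsin-like activity) and β5 (Psmb5, chymotrypsin-like activity). Interferon-γ induces a replacement for each of them, β1i (Psmb9), β2i (Psmb10) and β5i (Psmb8), which form the immunoproteasome and favour peptides that MHC class I molecules present. Immune cells carry these replacements, and muscle fibres carry mostly the constitutive forms. In muscle the ubiquitin-proteasome system breaks down much of the contractile protein lost during atrophy.

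Promoters of Psmb5 and Psmb6, the members with the smallest p between the groups, and of Psmb8, the immune counterpart of Psmb5, are shown because the interest in these genes is whether a hormone changes their transcripts. RefSeq promoters on GRCm38.p6, from 250 bases before the transcript start to 50 after it, were given for 7 of the 10 genes and not for Psmb1, Psmb2 and Psmb7. Only the 250 bases before the start are printed here, in the direction of transcription. In capitals are matches to TGACNNNGC, the core of the antioxidant response element through which the factor Nfe2l1 is known to raise proteasome genes, in Psmb5 and Psmb6, and to TTCNNNGAA, the core of the interferon-γ activated site, in Psmb8.
Psmb5, chr14:54617996-54618245, minus strand: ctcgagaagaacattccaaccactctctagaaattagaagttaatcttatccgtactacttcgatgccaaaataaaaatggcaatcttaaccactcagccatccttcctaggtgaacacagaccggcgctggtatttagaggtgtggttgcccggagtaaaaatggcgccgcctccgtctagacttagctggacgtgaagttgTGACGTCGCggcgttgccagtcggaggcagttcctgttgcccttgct
Psmb6, chr11:70525107-70525356, plus strand: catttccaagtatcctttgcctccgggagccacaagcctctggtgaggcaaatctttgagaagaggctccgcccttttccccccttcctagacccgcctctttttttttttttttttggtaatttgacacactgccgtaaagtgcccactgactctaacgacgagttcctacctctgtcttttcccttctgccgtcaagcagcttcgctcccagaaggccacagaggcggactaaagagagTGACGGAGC
Psmb8, chr17:34197945-34198194, plus strand: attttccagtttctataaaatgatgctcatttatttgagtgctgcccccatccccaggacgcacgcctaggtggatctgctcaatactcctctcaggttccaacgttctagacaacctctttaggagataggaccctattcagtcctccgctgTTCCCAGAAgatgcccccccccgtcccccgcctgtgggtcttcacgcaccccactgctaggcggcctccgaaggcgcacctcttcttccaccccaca

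Both strands of the 300 bases were searched. TGACNNNGC stood in 2 of the 7 promoters, Psmb5 (TGACGTCGC, its first base 47 bases before the start) and Psmb6 (TGACGGAGC, 9 bases before the start), and in 12.4% of all 32851 promoters. TTCNNNGAA stood in Psmb8 alone of the 7 and in 8.3% of all. The estrogen response element, searched as GGTCA followed after 3 bases by TGACC, was in none of the 7 windows and in 0.07% of all promoters. Bases further from the start, where such elements can also lie, were not searched. Its part GGTCA, which overlaps both it and AGGTCA, was in Psmb3, Psmb4 and Psmb10, and in 40.5% of all. AGGTCA was in Psmb10 (16.3% of all), the interferon element (GAAA again after a gap of 2 bases) in Psmb3 (3.44%), the NF-κB pattern (GGG, 5 bases and CC) in Psmb3, Psmb6 and Psmb9 (50.8%) and CCAAT in Psmb3 and Psmb9 (37.4%). These matches describe the letters in the window and say nothing of binding.

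The tissue is left ventricle by the labels but soleus muscle by the study's text. Of 7 skeletal muscle markers 6 lay in the top 5% of probe sets, and 0 of 6 heart markers did, so the skeletal muscle markers are the bright ones. Values are log2 expression in arbitrary units, with array medians from 6.90 to 6.93 and SDs over the probe sets from 1.20 to 1.22 in OVX and from 1.14 to 1.16 in OVX + E2. The arrays numbered 3 stood apart, as shown by the mean of 10 fast-fibre genes such as Myh4, which was 12.90 for OVX replicate 3 but 10.53 for OVX + E2 replicate 3 (11.82 to 12.36 for the other arrays). All differences are OVX + E2 minus OVX from limma on the deposited values. A probe set is said to have passed at an unadjusted p of 0.001 or less, the threshold of the study's methods. No probe set on the array had an adjusted p under 0.05.

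Of the 3 catalytic subunits of the constitutive core, Psmb5 and Psmb6 fell with E2 and Psmb7 did not pass. Psmb5 read 11.12, 11.19 and 11.17 under placebo (OVX) and 10.92, 10.93 and 10.86 under E2, given here and below in the order of the replicate numbers 1 to 3. All OVX + E2 values lay below all OVX values, with a gap several times the spread inside either group (SD 0.038 and 0.040, n = 3 each). On the log2 scale Psmb5 fell by 0.25 (standard error 0.041, fold 0.839, limma unadjusted p = 3.95e-04, adjusted p = 0.308). Psmb6, which carries the caspase-like site, measured 10.18, 10.27 and 10.21 under placebo and 9.96, 9.99 and 9.94 under E2. Again the groups did not overlap and the spread inside each was small (SD 0.042 and 0.028, n = 3 each). Psmb6 fell by 0.26 (standard error 0.040, fold 0.836, limma unadjusted p = 3.06e-04, adjusted p = 0.308). The study lists both probe sets from these same arrays, so their direction is not independent evidence. Psmb7, the trypsin-like subunit, measured 11.59, 11.54 and 11.83 under placebo and 11.49, 11.44 and 11.24 under E2. The groups did not overlap here either, but OVX replicate 3 was the highest and OVX + E2 replicate 3 the lowest value. The log2 difference of Psmb7 was −0.27 (standard error 0.094, limma unadjusted p = 0.0249), and −0.10 without both arrays numbered 3. For Psmb5 and Psmb6 the differences without those arrays were −0.23 and −0.25, with an unadjusted p of 0.00448 and 0.00327. Leaving out 1 array at a time, Psmb5 passed only without OVX replicate 1 and Psmb6 only without OVX replicate 1 or OVX + E2 replicate 2, while their differences stayed between −0.28 and −0.23 (−0.28 to −0.24 for Psmb6) and their largest p values were 0.00199 and 0.00192. After cyclic loess between the arrays the differences were −0.11 for each (unadjusted p = 0.0295 and 0.0419), and neither passed.

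**Figure D1:**
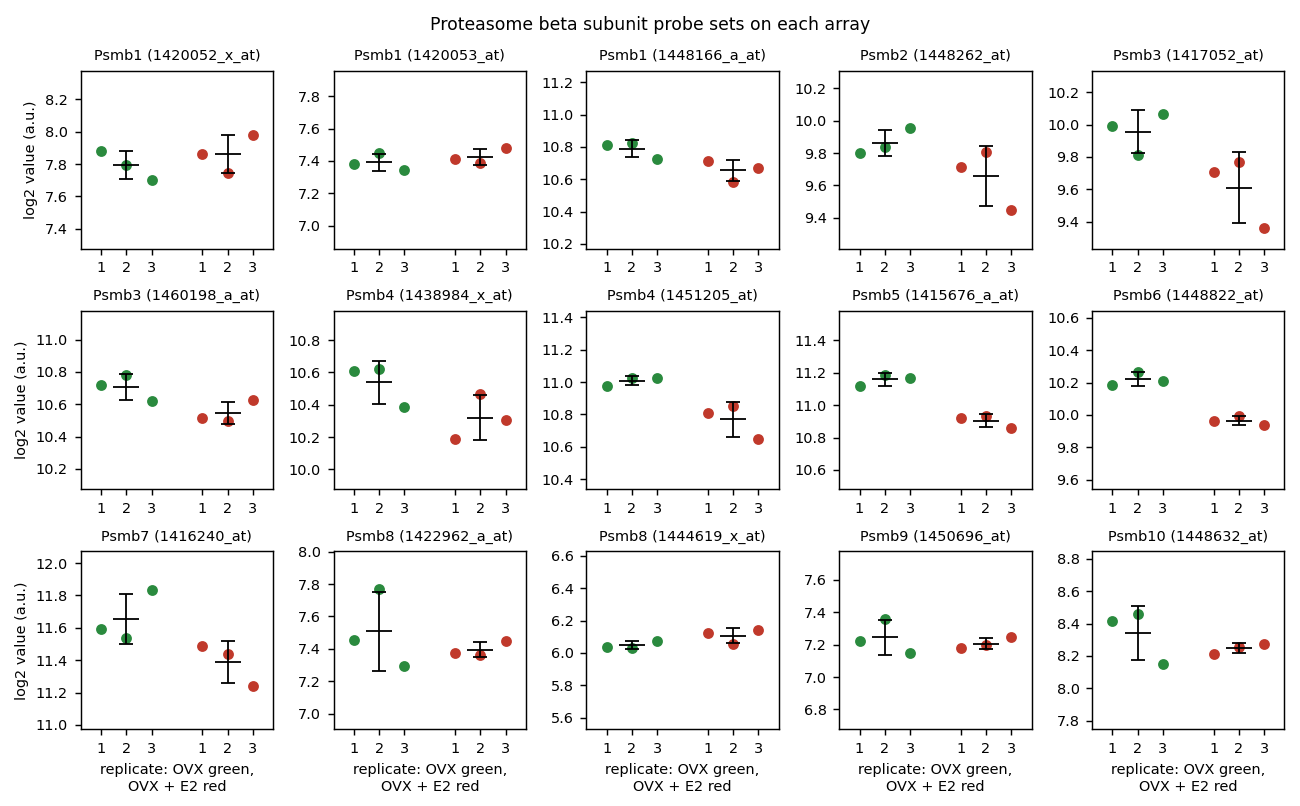
Log2 expression value (vertical axes, arbitrary units, all panels spanning the same range) of the 15 probe sets on each array, OVX in green and OVX + E2 in red, with replicates 1, 2 and 3 from left to right, and the group mean and SD (n = 3) in black. Psmb5 and Psmb6 show narrow groups with a clear gap, Psmb2, Psmb7 and the first Psmb3 probe set reach their top on OVX replicate 3 and their bottom on OVX + E2 replicate 3, and the immune subunits overlap between the groups. After quantile normalization the third Psmb1 probe set, the second of Psmb3 and that of Psmb10 differ in the other direction.

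Among the other 4 constitutive subunits, which shape the β ring and have no cutting site, none passed at 0.001. Psmb4 (β7, known to help join the β rings) has a pair of probe sets. Its probe set 1451205_at measured 10.98, 11.02 and 11.03 under placebo and 10.81, 10.85 and 10.65 under E2, with no overlap. The log2 difference was −0.24 (standard error 0.058, limma unadjusted p = 0.00429). The other, 1438984_x_at, whose name marks probes that can match other sequences, measured 10.61, 10.62 and 10.39 under placebo and 10.19, 10.46 and 10.31 under E2. Here the groups overlapped, since OVX replicate 3 was below OVX + E2 replicate 2, and the difference was −0.22 (standard error 0.089).

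The probe sets of Psmb3 (β3) disagreed in their pattern over the arrays. On 1417052_at the values were 9.99, 9.81 and 10.07 under placebo and 9.71, 9.77 and 9.36 under E2, without overlap, and OVX + E2 replicate 3 was far below the rest. Its difference, −0.35 (standard error 0.116, limma unadjusted p = 0.0198), was the lowest of the members and became −0.16 without both arrays numbered 3. On 1460198_a_at the values were 10.72, 10.78 and 10.62 under placebo and 10.51, 10.50 and 10.62 under E2, so both arrays numbered 3 held nearly the same value. There the difference went the other way, from −0.16 (standard error 0.056) to −0.24 without the arrays numbered 3. Psmb2 (β4) followed the first of these patterns, with 9.80, 9.84 and 9.95 under placebo and 9.71, 9.81 and 9.45 under E2. Its difference was −0.21 (standard error 0.093, limma unadjusted p = 0.0610) and −0.06 without the arrays numbered 3. Psmb2, Psmb7 and 1417052_at of Psmb3 therefore shrank by more than 1.5 times when those arrays were left out, and the part of fibre type in these 3 was not tested beyond this. With the fast-fibre mean as a covariate they were −0.05, −0.11 and −0.16.

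Psmb1 (β6) was measured by 1 bright and 2 dimmer probe sets. On the bright 1448166_a_at the values were 10.81, 10.83 and 10.73 under placebo and 10.71, 10.58 and 10.67 under E2. The groups were separated by a small margin, with a difference of −0.13 (standard error 0.050, limma unadjusted p = 0.0305), which was 0.01 after cyclic loess and 0.03 after quantile normalization. The dimmer probe sets 1420052_x_at and 1420053_at differed by 0.07 and 0.03 (standard errors 0.072 and 0.045), with overlapping groups, and by −0.04 and −0.02 without both arrays numbered 3. Their levels lay at percentiles 78.0 and 68.9 of all probe sets, and that of the bright one at 97.8.

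The immune subunits did not pass, and their groups overlapped on all 4 probe sets. Psmb8 (β5i) measured 7.46, 7.77 and 7.30 under placebo and 7.38, 7.36 and 7.45 under E2 on 1422962_a_at. OVX replicate 2 stood above the other 5 arrays, which lay within 0.16 of each other. The difference was −0.11 with a 95% interval from −0.38 to 0.15 (limma unadjusted p = 0.348), and 0.02 without OVX replicate 2. Its other probe set, 1444619_x_at, lay at percentile 5.38 of all probe sets on the array, and its value of 6.03 to 6.14 on all arrays is near the lower end of the scale. It differed by 0.06 (standard error 0.040, limma unadjusted p = 0.187). Psmb9 (β1i) measured 7.22, 7.36 and 7.15 under placebo and 7.18, 7.20 and 7.25 under E2. Its difference was −0.04, with an interval from −0.18 to 0.10 (limma unadjusted p = 0.542), and 0.02 without OVX replicate 2. Psmb10 (β2i) measured 8.42, 8.46 and 8.15 under placebo and 8.21, 8.26 and 8.27 under E2. It was OVX replicate 3 that was low here, below all OVX + E2 arrays. The difference was −0.10 with an interval from −0.28 to 0.09 (limma unadjusted p = 0.274), and −0.19 without OVX replicate 3 (unadjusted p = 0.00420). After quantile normalization it was 0.02.

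Set side by side, the catalytic pairs differed between the groups by −0.25 (Psmb5) and −0.11 (Psmb8), by −0.26 (Psmb6) and −0.04 (Psmb9), and by −0.27 (Psmb7) and −0.10 (Psmb10). Whether a pair differs in its response was not tested. The interval of Psmb8 holds the value of Psmb5, and that of Psmb10 holds the value of Psmb7. The interval of Psmb9 (−0.18 to 0.10) does not hold the value of Psmb6. With 1 probe set per gene, the one that varied most over the arrays, the constitutive mean was 10.17, 10.15 and 10.19 under placebo and 9.98, 10.02 and 9.88 under E2. The immune mean was 7.70, 7.86 and 7.53 under placebo and 7.59, 7.60 and 7.66 under E2. The constitutive means did not overlap between the groups, and the immune means did, with the spread inside OVX (SD 0.166) several times that inside OVX + E2 (SD 0.036). The median log2 difference was −0.25 over the 7 constitutive genes, of which 6 were below 0, and −0.10 over the 3 immune genes, all below 0, against −0.01 over all 18194 genes. The exception was Psmb1, for which this rule takes the dimmer 1420052_x_at. With the brightest probe set of each gene 7 of 7 were below 0 and the median was −0.24. The immune median was 0.02 without OVX replicate 2. Without both arrays numbered 3 the order of the medians turned, to −0.20 for the immune and −0.16 for the constitutive genes, and with the fast-fibre mean as a covariate they were −0.17 and −0.16.

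Read against the whole array, the members were below 0 in 12 of 15 probe sets, where 52.3% of all probe sets were. At 0.001, 2 passed, both lower, where 0.197% of all probe sets passed with a lower value and 0.0155% with a higher one. At an unadjusted p under 0.05 there were 8, all lower and all of constitutive genes, where 9.43% of all probe sets were lower and 4.35% higher at that p. Scaling changed both, since after quantile normalization 1 member was lower, with 3.33% of all probe sets lower and 4.46% higher, and after cyclic loess 2 members were, with 4.02% lower and 3.57% higher. As deposited, the count of 8 was 4 without OVX replicate 1 and 5 without OVX replicate 2 or without OVX + E2 replicate 3. Groups without overlap and with lower values were found for 6 of 15, against 11.4% of all probe sets, and an exact two-sided permutation test over the 20 labelings gives each of these 6 its smallest possible p of 0.1. These shares depend strongly on brightness, so the 1000 probe sets nearest in mean level were taken as a nearer background. Around the 9 bright constitutive probe sets, 92.6% to 94.5% of the neighbours were below 0, as were all 9. At an unadjusted p under 0.05, 39.5% to 40.9% of the neighbours were lower, and 8 of the 9 were. Between 39.0% and 41.6% of those neighbours had groups without overlap and lower values, and 6 of the 9 did. At 0.001 the share was 0.9% around Psmb5 and 1.5% around Psmb6. Around Psmb9, 5.1% of the neighbours were lower at a p under 0.05, around Psmb8 (1422962_a_at) 7.8%, and around Psmb10 24.4%, and none of these genes was. The median of the neighbours was −0.15 for Psmb5, −0.16 for Psmb6, −0.14 for Psmb7 and −0.16 for Psmb2 and for 1417052_at of Psmb3.

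Relative to those medians, Psmb5 and Psmb6 stood at −0.10 each on the log2 scale. Of the neighbours, 16.9% of those of Psmb5 and 20.8% of those of Psmb6 were lower still. Psmb7 stood at −0.12 (12.5% lower still) and 1417052_at of Psmb3 at −0.19 (8.0%), the lowest of the members. Their differences before this subtraction shrank without both arrays numbered 3, as given above. The relative values were not recomputed without those arrays. Psmb4 stood at −0.09 and −0.06, Psmb2 at −0.05, 1460198_a_at of Psmb3 at −0.01 and the bright probe set of Psmb1 at 0.02. Of the immune genes, Psmb8 (1422962_a_at) stood at −0.09, Psmb9 at −0.04 and Psmb10 at 0.02. Constitutive and immune subunits thus lay closer together on this scale, with a median over genes of −0.10 and −0.04, than before (−0.25 and −0.10). The values relative to like brightness moved by less than the spread between replicates with 200 neighbours and after quantile normalization or cyclic loess, for all 15 probe sets. Both scalings shift probe sets of like brightness nearly together, so they are no separate test of these values.

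**Figure D2:**
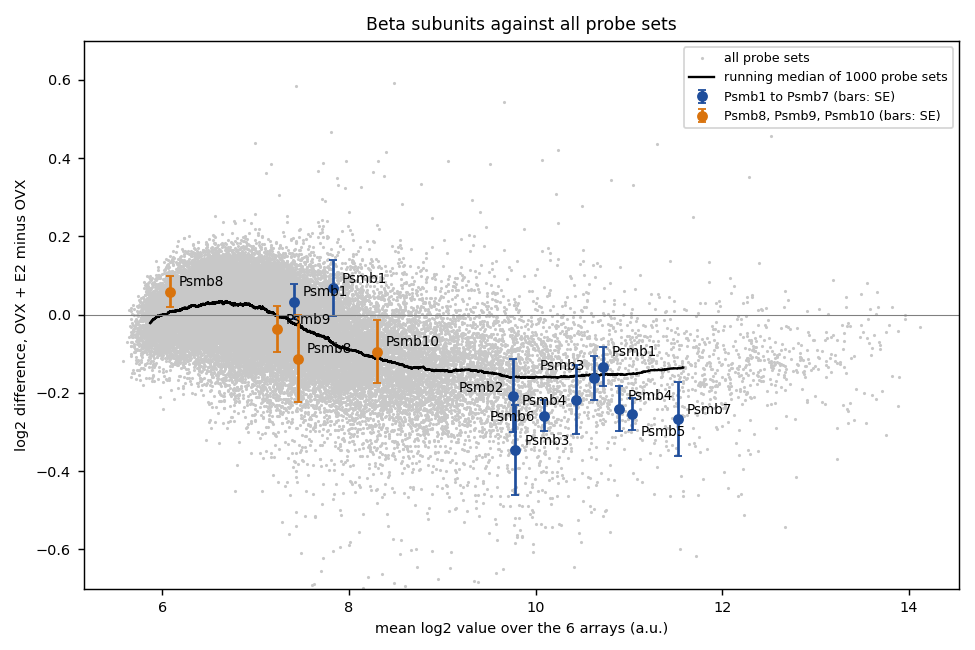
Each grey point is a probe set of the array, placed by its mean log2 value on the horizontal axis and by its log2 difference, OVX + E2 minus OVX, on the vertical axis, without 40 that lie beyond 0.7 in either direction, with the constitutive subunits in blue and the immune subunits in orange (bars are standard errors) and the running median over 1000 probe sets as a line. The line falls from about 0 at the level of Psmb9 to −0.16 at that of Psmb6, and most constitutive subunits lie below it by less than 0.13, while Psmb1 lies on or above it.

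**Figure D3:**
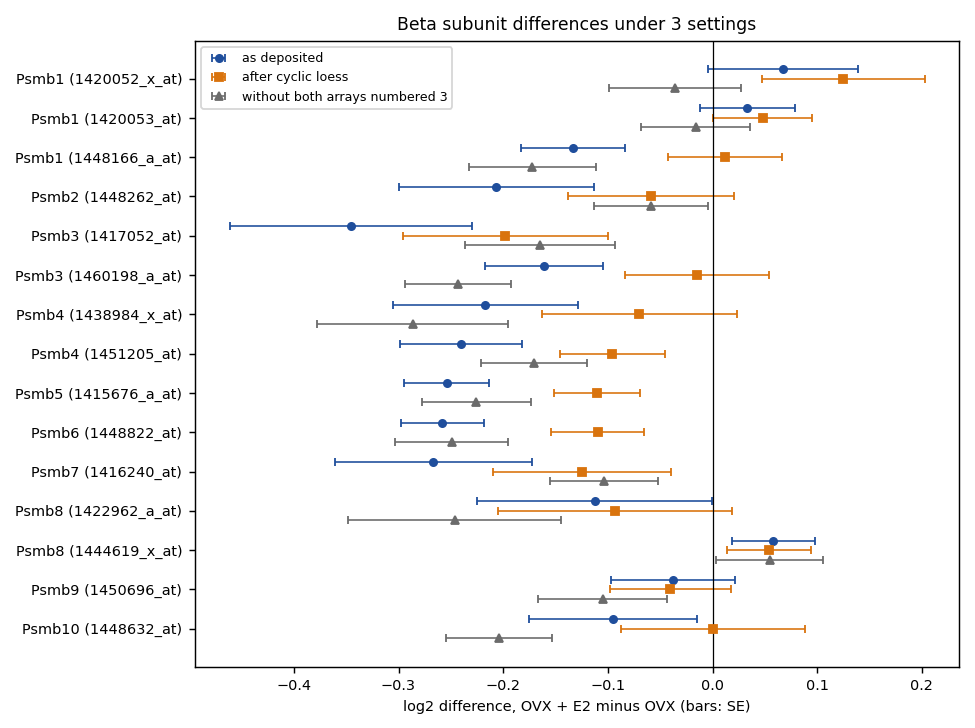
Log2 difference between OVX + E2 and OVX (horizontal axis, bars are standard errors from limma) of each probe set as deposited, after cyclic loess between the arrays, and without both arrays numbered 3. After cyclic loess Psmb5 and Psmb6 move from −0.25 and −0.26 to −0.11 each and the bright probe set of Psmb1 turns to 0.01, and without the arrays numbered 3 Psmb2 and Psmb7 move towards 0 while Psmb8 and Psmb10 move away from it.

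The other parts of the proteasome were lower in most genes. Of 8 α ring genes, which gate the core, 7 were below 0 (median log2 difference −0.11), and 3 were lower at an unadjusted p under 0.05. Among probe sets of like brightness the share lower at that p, averaged over the genes of a part, was 25.9% for the α ring, 32.9% for the ATPases and 36.7% for the non-ATPases. Psma5 and Psma7 had the smallest p, with −0.20 each (limma unadjusted p = 0.0126 and 0.0129), and neither passed at 0.001. Of 6 ATPases of the 19S cap, which unfold proteins and feed them into the core, all were below 0 (median −0.21), 5 were lower at a p under 0.05, and Psmc4 fell by 0.22 (standard error 0.037, limma unadjusted p = 5.54e-04). Psmc5 differed by −0.25 (limma unadjusted p = 0.00106). Of 12 measured non-ATPases of the cap, 11 were below 0 (median −0.20), 7 were lower at a p under 0.05 and 2 passed, Psmd3 (fell by 0.28, limma unadjusted p = 7.24e-04) and Psmd11 (fell by 0.26, unadjusted p = 9.00e-04). Leaving out 1 array at a time, Psmc4 passed in 0 of 6 limma fits (its largest unadjusted p was 0.00282), Psmc5 only without OVX + E2 replicate 1, Psmd3 only without OVX replicate 1 and Psmd11 only without OVX + E2 replicate 1. Psmc4, Psmd3 and Psmd11 are also listed by the study from these arrays. Of 4 measured genes among the activators and the inhibitor, all were below 0 (median −0.21, and −0.01 without both arrays numbered 3), led by Psme3 (−0.17, limma unadjusted p = 0.0298) and Psme1 (−0.26, unadjusted p = 0.0366), the latter a part of the interferon-inducible activator. Of 8 assembly chaperones 6 were below 0 (median −0.09, but 0.01 after cyclic loess), led by Psmg1 (−0.12, limma unadjusted p = 0.0183) and Pomp (−0.11, unadjusted p = 0.0751), which matures the β subunits. Relative to probe sets of like brightness the median was −0.10 for the constitutive β genes, −0.07 for the ATPases, −0.04 for the non-ATPases, −0.12 for activators and inhibitor, and −0.01 and 0.01 for the α ring and the chaperones. For some genes of these parts the rule of 1 probe set per gene takes a dimmer probe set. With the brightest one, 7 of 8 α ring genes (median −0.12) and 12 of 12 non-ATPases (median −0.20) were below 0. The relative values were not recomputed with those probe sets. After cyclic loess the median difference was −0.13 for activators and inhibitor, −0.11 for the constitutive β genes, −0.08 for the ATPases, −0.05 for the non-ATPases, −0.02 for the α ring and 0.01 for the chaperones. The counts at a p under 0.05 were then 0 for the α ring, 1 for the ATPases and 4 for the non-ATPases, and after quantile normalization 0, 0 and 2. Of 5 genes that control proteasome transcripts all were below 0 (median −0.19), and 2 were lower at a p under 0.05. These were Ngly1, which activates Nfe2l1, at −0.19 (limma unadjusted p = 0.0100) and Stat3 at −0.22 (unadjusted p = 0.0189). Nfe2l1 itself differed by −0.24 (standard error 0.109, unadjusted p = 0.0617). On average 37.2% of probe sets of like brightness were lower at that p, and relative to them the median of the 5 genes was −0.05. Their median was −0.05 after cyclic loess and −0.04 after quantile normalization, with none at a p under 0.05.

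**Figure D4:**
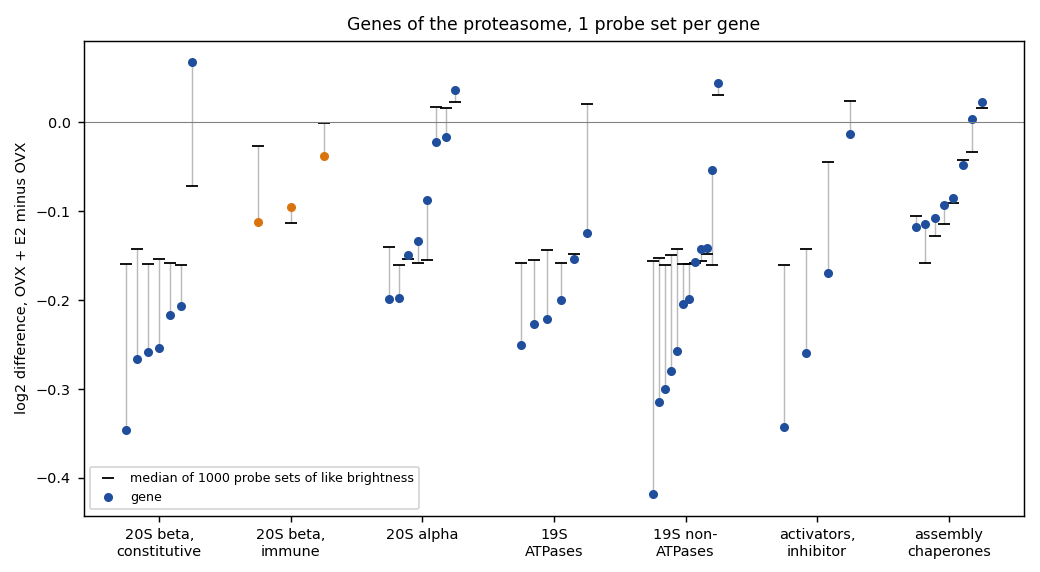
The vertical axis is the log2 difference, OVX + E2 minus OVX, and the horizontal axis the part of the proteasome that each gene belongs to, 1 probe set per gene, with a black tick at the median of the 1000 probe sets of like brightness. The 6 lower constitutive β genes run from −0.35 to −0.21 with ticks at −0.16 to −0.14, and the gene above 0 is Psmb1 by its dimmer probe set. After cyclic loess the medians of the parts lie between −0.13 and 0.01.

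The mean of the immune subunits moved over the arrays with the means of antigen presentation genes and of endothelial markers, but not with these alone. Some genes of both lists moved otherwise. OVX replicate 2 held their top mean and OVX replicate 3 their bottom one. The mean of 9 endothelial markers did the same, at 8.59 and 8.03 in log2 value (8.29 on OVX replicate 1, 8.11 to 8.35 in OVX + E2). Of single markers Emcn also did, but Pecam1 was lowest on OVX + E2 replicate 3 (7.88, against 7.99 on OVX replicate 3). Some others of the 9 did not follow this order either. The leukocyte markers did not follow this order, with 7.35, 7.31 and 7.20 on OVX replicates 1, 2 and 3 and 7.24 to 7.36 in OVX + E2. The skeletal muscle markers Myh7 and Tnnt1 did, at 13.98 and 13.85 on OVX replicate 2 and 13.55 and 13.39 on OVX replicate 3. Their other arrays lay from 13.75 to 13.92 and from 13.63 to 13.73, and the other skeletal muscle markers did not follow it. The mean of the fibroblast markers followed it over the OVX arrays (9.51, 9.77 and 9.28) but was lowest in OVX + E2 (9.13 to 9.43). Of the 9 endothelial markers 7 were below 0 between the groups (median −0.06, but 0.01 after cyclic loess) and none at a p under 0.05, and of 15 leukocyte markers 7 were below 0 and none at that p. Without both arrays numbered 3, 9 of 9 endothelial markers were below 0 (median −0.32, 4 at a p under 0.05), as were 12 of 15 leukocyte markers (median −0.04, 5 at that p). In that setting 6 genes each of MHC class I and of the interferon response were lower at that p. Of all probe sets, 7.54% were then lower and 2.10% higher at that p. In whole muscle, fewer cells of a type and less RNA per cell cannot be told apart, and the part of endothelial content in the immune subunits was not tested. MHC class I genes had their highest mean on OVX replicate 2 (8.71, against 8.58 and 8.41 on OVX replicates 1 and 3 and 8.41 to 8.43 in OVX + E2). Of 11 such genes 9 were below 0 (median −0.14), and 2 were lower at a p under 0.05. Among probe sets of like brightness 23.8% were, on average over the genes. Tapbp (−0.23, limma unadjusted p = 0.00620) and Calr (−0.24, unadjusted p = 0.00656), which load peptides, had the smallest p, and none of the 11 passed. After cyclic loess the limma unadjusted p was 0.157 for Tapbp and 0.263 for Calr. The mean of the 21 measured interferon response genes followed the same order over the OVX arrays (7.48, 7.61 and 7.40). These genes had a median difference of −0.08, with Jak1 (−0.46, limma unadjusted p = 0.0240) and Irgm1 (−0.14, unadjusted p = 0.0331) first. Their median was 0.01 without OVX replicate 2. As deposited 2 of the 21 were lower at a p under 0.05, against 12.0% of probe sets of like brightness on average. Fibroblast markers, 6 of 6, were below 0 (median −0.29), and fat cell markers had 1 of 4 below 0.

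**Figure D5:**
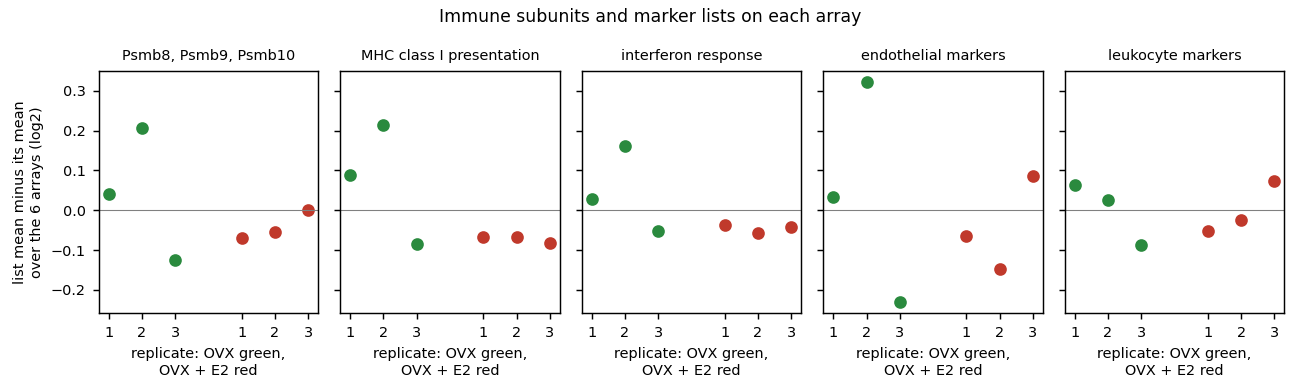
Mean log2 value of a gene list on each array minus its mean over the 6 arrays (vertical axis), with OVX in green and OVX + E2 in red and replicates 1, 2 and 3 from left to right, for the immune subunits, MHC class I presentation, interferon response, endothelial markers and leukocyte markers. The first 4 lists are highest on OVX replicate 2 (0.21, 0.21, 0.16 and 0.32), and the leukocyte markers are highest on OVX + E2 replicate 3 (0.07).

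The genes most like each set over the 6 arrays were found by Pearson's r among 10382 other genes brighter than the median probe set. For the constitutive mean these were Cox10 (r = 0.998, heme A synthesis), Crat (0.997, carnitine acetyltransferase), Dnajc5 (0.997), Crispld2 (0.996) and Tinf2 (0.995). For the immune mean they were Cav1 (0.996, the caveolin of endothelial and fat cells), Tmem86a (0.995), Emcn (0.993, an endothelial sialomucin), Myl12b (0.991) and Pola2 (0.990). With 6 arrays and so many genes, values this high are a description only, and all genes share the normalization of the same arrays.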

How the data were processed

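Muscle RNA was hybridized to Affymetrix mouse arrays, and the 6 samples were grouped by their titles (3 OVX, 3 OVX + E2). Per the labels, the deposited values are log2, in arbitrary units, after a background correction whose method is not stated, variance stabilizing normalization and summarization by median polish, which the authors ran in R 2.14.2. Arrays have no read depth, and their number limits the precision. Probe sets were named from the platform annotation (34958 with 1 symbol), and the RefSeq table of GRCm38.p6 held 34754 of the gene identifiers with no change of symbol. The deposited log2 values of all 45101 probe sets, 64 control probe sets included, went into lmFit and then eBayes (limma 3.58.1, R 4.3.3; two-sided, no covariate) and adjusted by Benjamini-Hochberg over all of them. Lists use 1 probe set per gene, that with the largest interquartile range. Like brightness means the 1000 probe sets nearest in mean level, without control probe sets. The fit was tested on simulated data.

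Results were recomputed after median centring, after quantile normalization and after cyclic loess (3 iterations), and with a filter on dim probe sets, an intensity trend of the variance, the replicate number as a block, the fast-fibre mean as a covariate, other choices of the probe set per gene, 200 neighbours, and leaving out each array or both arrays numbered 3. Named are all members, from each list the 1 or 2 genes of smallest p, and the 5 genes most like each set. Also named, after their values were seen, are Nfe2l1, Emcn, Pecam1, Myh4, Myh7 and Tnnt1. Members and lists were chosen with earlier results of these data known.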

Additional observations from a re-analysis of the deposited data

How the results depend on the processing

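No alternative raised the count of members past 0.001, which was 2 as deposited, after median centring and among brighter probe sets. It was 0 after quantile normalization and after cyclic loess, 0 with an intensity trend, 0 with the replicate block, 0 with the fast-fibre covariate, 0 without both arrays numbered 3, and 0 to 2 when 1 array was left out (limma throughout). At an unadjusted p under 0.05 the 8 lower members became 1 after quantile normalization, 2 after cyclic loess, 5 with an intensity trend, 5 with the replicate block, 5 with the fast-fibre covariate and 4 to 7 when 1 array was left out. The median of the constitutive genes, −0.25, was −0.081 after quantile normalization, −0.11 after cyclic loess, −0.16 without both arrays numbered 3 and −0.16 with the covariate. That of the immune genes, −0.10, was −0.031, −0.041, −0.20 and −0.17 under the same settings, so the last 2 put it below the constitutive one. Directions turned for Psmb1, where 1420052_x_at was −0.036 and 1420053_at −0.016 without both arrays numbered 3 (−0.024 and −0.010 with the covariate) and 1448166_a_at was 0.034 after quantile normalization and 0.012 after cyclic loess. They also turned for 1460198_a_at of Psmb3 (0.021 after quantile normalization), for Psmb10 (0.016 after quantile normalization and 0.00045 after cyclic loess), and, when 1 array was left out, for 1422962_a_at of Psmb8 (−0.22 to 0.020) and Psmb9 (−0.085 to 0.020). The causes were not tested. Arrays of the same number did not deviate together (correlations of −0.13, −0.20 and −0.34). This cannot show that the samples are unpaired, since the opposite fast-fibre means of the arrays numbered 3 enter these deviations. The replicate block left Psmb5 at an unadjusted p of 0.00270 and Psmb6 at 0.00171 (limma). The 3 arrays in each group limit the precision, as the intervals of the immune subunits show.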
